A study of Mus musculus with 17 samples.

Results

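Glucose transport and glycolysis were followed through 10 genes: Slc2a1, Hk1, Hk2, Pfkfb3, Pfkp, Pfkl, Aldoa, Pgk1, Eno1 and Ldha. A probe set, a group of short array probes for 1 transcript, was used when the platform annotation named exactly 1 of these genes for it. That gave 20 of 22690 probe sets in a table of 8 arrays and 13 of 12488 in a table of 9 arrays, covering 9 genes in each. Eno1 had no probe set annotated to it alone and was not analysed here. The lowest 30% of probe sets by mean signal were not tested, which left out 1 of 2 probe sets of Pfkfb3 in the 8-array table and 1 of 2 for Pfkfb3 and for Hk2 in the 9-array table. The other 19 and 11 probe sets were tested, so all 9 genes were tested in both tables.

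The RNA came from quiescent NIH 3T3 cells, an immortalised line of mouse embryonic fibroblasts, on 17 arrays with 1 array per condition and experiment. The Src experiment, which fills the 8-array table, had a vehicle array and arrays with SU6656 (2 µM, an inhibitor of Src family kinases), UO126 (10 µM, a MEK inhibitor) or LY294002 (7.5 µM, a PI3K inhibitor), each also measured with PDGF at 25 ng/ml for 1 h. The MEK experiment had untreated cells and cells given UO126 (10 µM) or PD98059 (7.5 µM, another MEK inhibitor), each without and with PDGF at 25 ng/ml, whose time is not given in the sources used here. The repeat of the Src experiment had vehicle, PDGF, and PDGF with SU6656 (25 ng/ml PDGF for 1 h, 2 µM SU6656), and shares the 9-array table with the MEK experiment. No label states whether the cultures were separate, so p-values reflect only the scatter among these arrays, which may be technical. Values were scaled by the submitters to a trimmed mean of 500.2 to 500.4 per array, with medians of 133.7 to 198.4 signal units. Signals are compared between probe sets only by rank or as bright and dim, and are not compared between the tables. The fibroblast markers, 8 of 8 on both designs, had mean signals at a median percentile of 99.8 and 96.7 of all probe sets, the lowest being Pdgfra at 63.8 in the 8-array table and Vim at 33 in the 9-array table. Markers of other cell types had lower medians but were not all dim. Of 4 leukocyte markers, 3 and 2 passed the filter on low signals, from Ptprc at percentile 6.6 and 3.2 to Csf1r at 65.4 and 49.3. Of 4 epithelial markers, 2 passed in each table, from Epcam at 4 and 8.6 to Krt8 at 54 and Cdh1 at 65.3. Of 3 endothelial markers 2 and 1 passed, and of 4 adipocyte and muscle markers 1 passed in each table. The Gapdh 3′ to 5′ probe ratio, a measure of RNA quality, was 1.129 on the untreated array of the MEK experiment and 0.739 to 0.907 on the other 16 arrays.

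Glucose enters fibroblasts mainly through GLUT1, the transporter encoded by Slc2a1. Hexokinases trap it as glucose 6-phosphate, phosphofructokinase commits it to glycolysis, and lactate dehydrogenase turns the final pyruvate into lactate. Growth factors raise glucose uptake in quiescent fibroblasts, in part through PI3K and its target AKT and through the ERK cascade. HIF-1 and MYC are transcription factors known to drive many genes of the pathway.

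The stretches of 250 bases just before the transcription starts of Slc2a1 and Hk2, the members whose signal rose with PDGF, and of Pgk1, a member that had a bright signal and did not pass the test, are shown to place the HIF core motif ACGTG in each. They are from RefSeq (GRCm38.p6), lie before the annotated start and outside the transcript, and run 5′ to 3′ on the gene's strand. Capitals mark each ACGTG, or CACGT where the motif is on the opposite strand. The Slc2a1 stretch is chr4:119108495-119108744 on the plus strand, that of Hk2 chr6:82774455-82774704 on the minus strand and that of Pgk1 chrX:106186850-106187099 on the plus strand.
Slc2a1: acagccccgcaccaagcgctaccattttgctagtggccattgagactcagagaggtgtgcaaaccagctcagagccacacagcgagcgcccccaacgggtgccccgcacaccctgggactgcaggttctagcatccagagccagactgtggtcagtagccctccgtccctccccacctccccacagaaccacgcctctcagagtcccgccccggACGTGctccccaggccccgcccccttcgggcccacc
Hk2: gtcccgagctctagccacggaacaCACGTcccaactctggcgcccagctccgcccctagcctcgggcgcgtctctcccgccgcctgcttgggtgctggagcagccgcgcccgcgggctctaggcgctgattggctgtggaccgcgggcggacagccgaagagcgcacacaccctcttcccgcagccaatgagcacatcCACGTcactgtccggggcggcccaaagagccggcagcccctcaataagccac
Pgk1: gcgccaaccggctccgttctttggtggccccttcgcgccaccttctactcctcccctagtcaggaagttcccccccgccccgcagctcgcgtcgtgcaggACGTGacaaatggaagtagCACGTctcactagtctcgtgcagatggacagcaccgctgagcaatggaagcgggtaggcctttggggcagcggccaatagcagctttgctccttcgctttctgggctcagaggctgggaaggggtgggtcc
Slc2a1 held 1 match, whose first base on the printed strand was 36 bases before the start. Hk2 held 2, at 226 and 52 bases, and Pgk1 held 2, at 150 and 131 bases. Over 32851 promoter stretches of this length in the RefSeq table, 16.6% held ACGTG on either strand, and 8 of the 17 stretches of the 10 genes did. The 17 are not all separate, since some stretches of Aldoa and of Eno1 overlap: the 2 Aldoa stretches with a match share 1 and the same site. The E-box CACGTG, which contains ACGTG, was in 2 of the 17 and in 6.02% of all. The AP-1 motif TGANTCA, where N is any base, was in 1 of the 17 and in 6.75% of all, and the CRE motif TGACGTCA, which also holds ACGT, was in 1 and in 1.55%. The GC box GGGCGG was in 11 of the 17 and in 32.7% of all. All motifs were searched on both strands, and a match is a description of the letters only.

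Slc2a1 had the largest PDGF response of the 9 genes in each experiment. At its brightest probe set in the Src experiment the signal was 949 with vehicle and 2905.8 with PDGF, 645.6 with SU6656 and 2191.5 with SU6656 and PDGF, 993.4 with UO126 and 1311.6 with UO126 and PDGF, and 714.4 with LY294002 and 1348.1 with LY294002 and PDGF. All 4 arrays with PDGF lay above all 4 without it, and the lowest of the PDGF arrays were those with UO126 and with LY294002. In the MEK experiment the single Slc2a1 probe set read 807.7 untreated, 1383.3 with PDGF, 1085.3 with UO126, 815.9 with UO126 and PDGF, 1034.8 with PD98059 and 1270.1 with PD98059 and PDGF. In the repeat it read 773.9 with vehicle, 1363.7 with PDGF and 1616.9 with PDGF and SU6656. These are readings of whole cultures, in which a change in every cell and a change in some cells cannot be told apart. PDGF alone was above its control in all 3 experiments, while the array with UO126 and PDGF lay below the one with UO126 alone in the MEK experiment.

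**Figure D1:**
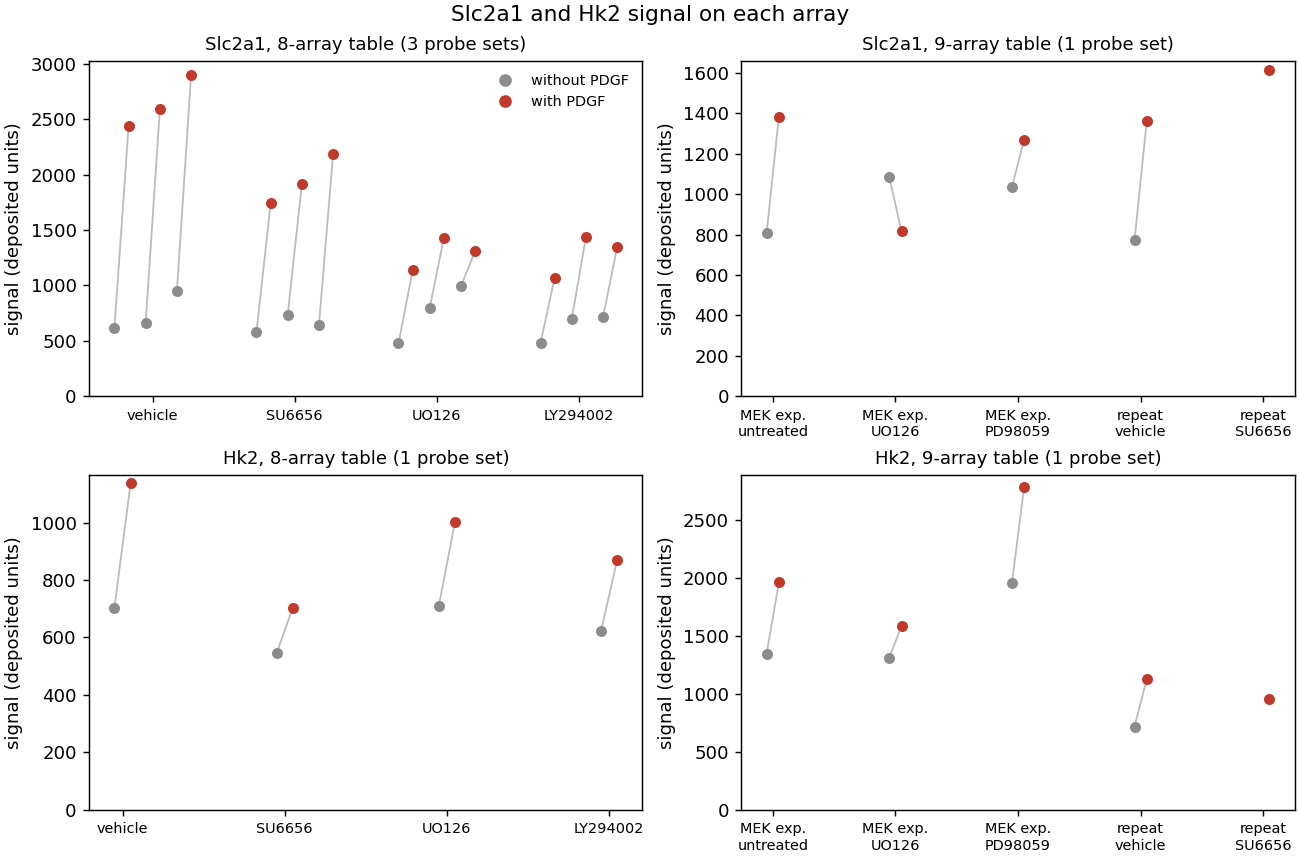
Signal of Slc2a1 (top) and Hk2 (bottom) on each array in the deposited units, linear axes from 0, with a grey point for the array without PDGF and a red point for the array with PDGF, and a line joining each pair; the repeat has no array with SU6656 alone. In the 8-array table the red Slc2a1 points are at 2905.8 with PDGF alone and 1311.6 with UO126 for the brightest probe set, and every Hk2 pair rises.

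Hk2 encodes the inducible hexokinase bound to mitochondria. In the Src experiment its signal was 703.8 with vehicle and 1137.3 with PDGF, 545.6 with SU6656 and 704.2 with SU6656 and PDGF, 710.4 with UO126 and 1003.2 with UO126 and PDGF, and 621.6 with LY294002 and 871 with LY294002 and PDGF. Each PDGF array was above its own partner, but the groups overlapped, since the array with SU6656 and PDGF lay below the one with UO126 alone. In the MEK experiment it was 1346.3 untreated and 1962 with PDGF, 1312.4 with UO126 and 1585.8 with UO126 and PDGF, and 1955.1 with PD98059 and 2788.9 with PD98059 and PDGF. In the repeat it was 716.4 with vehicle, 1130.4 with PDGF and 957.3 with PDGF and SU6656. Hk2 was higher with PDGF in all 8 pairs of arrays, including those with an inhibitor.

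The PDGF response over basal, as a difference in log2 signal after quantile normalisation, was 1.05 ± 0.45 for Slc2a1 (SD, n = 3 experiments), a mean of 2.08-fold. Taken singly, the Src experiment gave 1.57, its repeat 0.85 and the MEK experiment 0.74. For Hk2 it was 0.65 ± 0.09, a mean of 1.57-fold, from 0.55, 0.68 and 0.71. Hk1, the constitutive hexokinase, was lower in all 3 experiments at its brightest probe sets, at -0.26 ± 0.07, but its other probe set in the Src experiment read 864.1 with vehicle and 916.2 with PDGF. Pgk1, the phosphoglycerate kinase, was also lower in all 3, at -0.16 ± 0.23, with -0.43 in the MEK experiment and -0.02 and -0.04 in the others. Pfkfb3, whose product makes the activator of phosphofructokinase, differed in sign between experiments, at 0.19 ± 0.31. So did Pfkl and Pfkp, the liver and platelet type phosphofructokinases, at -0.07 ± 0.46 and -0.25 ± 0.32. Ldha, the muscle type lactate dehydrogenase, had -0.09 ± 0.18, and the aldolase gene Aldoa 0.00 ± 0.03. The other Aldoa probe set of the 9-array table read lower with PDGF, 4648.7 against 3964.2 in the MEK experiment and 3199.3 against 2399.2 in the repeat. These 3 experiments differ in controls and array design, so their SD is a spread over experiments and not over replicates.

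The PDGF effect was then fitted over the 4 pairs of arrays in each table, with the pair as a block (limma, Benjamini-Hochberg adjustment over all probe sets tested, threshold 0.05). In the 8-array table Slc2a1 and Hk2 rose, 2 of 9 genes by their brightest probe sets, where 3.31% of all 15838 probe sets passed in either direction and 2.51% rose. Slc2a1 had a log2 effect of 1.12 (SE 0.19, limma adjusted p = 0.0114). Its other 2 probe sets gave 1.26 (SE 0.157, limma adjusted p = 0.00169) and 1.44 (SE 0.133, limma adjusted p = 0.000253), both past the threshold. Hk2 had 0.50 (SE 0.0913, limma adjusted p = 0.0164). The checks that follow used the brightest probe set of each gene, so the other 2 Slc2a1 probe sets were not checked in this way. Both calls were lost without the variance trend of the fit (limma adjusted p = 0.137 for Slc2a1), and that for Hk2 without the pair block (limma adjusted p = 0.155). The call for Slc2a1 was lost without the PDGF or vehicle array (0.97 each) and without the array of SU6656 (0.94) or of SU6656 with PDGF (0.93), with limma adjusted p up to 0.0696. The call for Hk2 was lost without the PDGF or vehicle array (0.44 each) and without either LY294002 array (0.50 each), with limma adjusted p up to 0.112.

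The other 7 genes did not pass, with log2 effects from -0.16 for Pfkfb3 to -0.01 for Pfkl, and none of the 9 fell, against 0.808% of all probe sets. The median over the 9 genes was -0.11, and -0.05 over all 9218 genes tested. Of the 9 genes, 2 were higher with PDGF in all 4 pairs, against 10.6% of all probe sets, and 2 were lower in all 4 (Hk1 and Pgk1), against 14.3%. In 1 gene, Slc2a1, all PDGF arrays lay above all arrays without PDGF, against 3.44% of all probe sets, and in 1, Hk1, they lay below, against 3.73%. The other Hk1 probe set gave 0.02 (SE 0.0893), was higher with PDGF in 2 of 4 pairs and had overlapping groups. Pfkp also had probe sets that disagreed: the brighter gave -0.09 (SE 0.103), and the dimmer gave 0.41 (SE 0.164, limma adjusted p = 0.252) and was higher with PDGF in all 4 pairs.

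In the 9-array table no member passed, where 1.73% of 8695 probe sets did, 1.46% upward. The values for Hk2 were 0.49 (SE 0.112, limma adjusted p = 0.061), nearly the size seen in the 8-array table, and for Slc2a1 0.38 (SE 0.186, limma adjusted p = 0.421). Slc2a1 was higher with PDGF in 3 of 4 pairs there, the exception being the UO126 pair, and without either array of that pair the effect was 0.64. Hk1 had -0.53 (SE 0.129, limma adjusted p = 0.0852), and without either array of the PD98059 pair -0.34. Its signal was 6050.3 untreated and 4862.9 with PDGF, 8531.3 with UO126 and 6285.6 with UO126 and PDGF, 8395.5 with PD98059 and 4322.3 with PD98059 and PDGF, and in the repeat 12301.3 with vehicle, 9395.9 with PDGF and 11827.8 with PDGF and SU6656. Every Hk1 pair was lower with PDGF, and the 3 arrays of the repeat were above all 6 of the MEK experiment. Hk1, Pfkp, Pgk1 and Ldha were lower in all 4 pairs, 4 of 9 genes against 12.5% of all probe sets, and Hk2 alone was higher in all 4, against 9.09%. The median over the 9 genes was -0.13, and -0.04 over all 6366 genes tested. Without the untreated array of the MEK experiment, the one with the high Gapdh ratio, the effect was 0.26 for Slc2a1, 0.47 for Hk2 and -0.62 for Hk1, all short of the threshold.

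**Figure D2:**
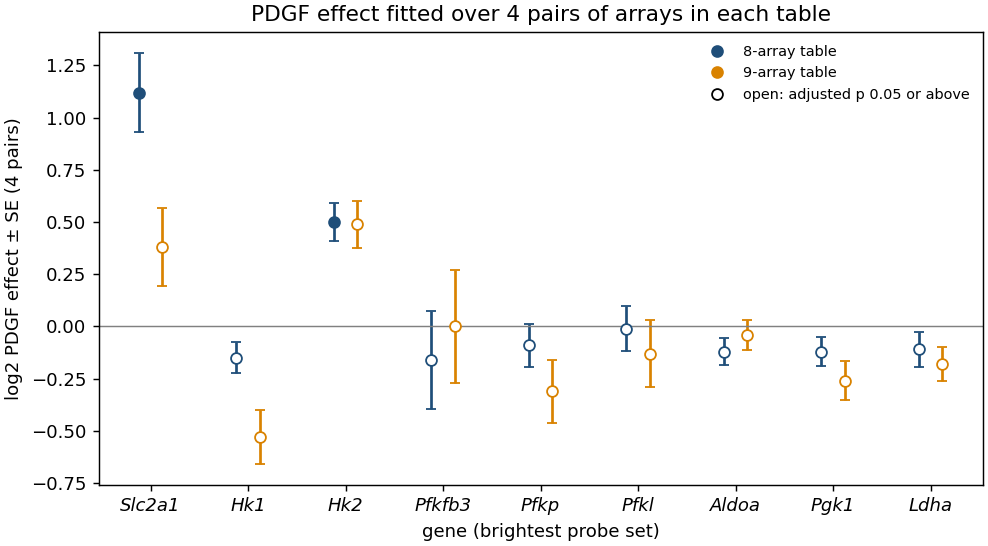
Log2 PDGF effect for the brightest probe set of each gene, fitted over 4 pairs of arrays in the 8-array table (blue) and the 9-array table (orange); bars are the standard error of the fit, and open points have an adjusted p of 0.05 or above. Slc2a1 at 1.12 and Hk2 at 0.50 in the 8-array table are the filled points, and Hk2 has nearly the same value, 0.49, in the 9-array table.

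At their brightest probe sets, Pgk1, Aldoa and Ldha, members of the lower pathway with bright signals, had ratios of highest to lowest signal of 1.31 to 1.33 over the arrays of the Src experiment. Pgk1 ranged from 13929 to 18514.5 at its brightest probe set in the Src experiment, highest over lowest 1.33, with a median of 15777.6. Aldoa ranged from 9437.5 to 12373.1 there (median 10434.6, ratio 1.31) and Ldha from 4558.7 to 5985.8 (median 5204.7, ratio 1.31). For all 3 of these genes the lowest array was that with UO126 and PDGF. These are deposited signals, before quantile normalisation, and that array also had the lowest median signal of the Src experiment, 174.7. In the same experiment the ratio of highest to lowest was 4.5 for Slc2a1, 2.08 for Hk2 and 1.17 for Hk1. Pfkl ranged from 439.5 to 578 and Pfkp from 384.3 to 515.3. A dimmer Pgk1 probe set had a ratio of 1.78 there. In the 9-array table Ldha ranged from 7548.5 to 10503.5 (ratio 1.39), Aldoa from 7577.7 to 9832.5 (1.3), Pgk1 from 3810.7 to 5522.4 (1.45) and Pfkl from 474.2 to 863.2 (1.82). The dimmer Aldoa probe set had a ratio of 1.94 there, was lower with PDGF in all 4 pairs and had a PDGF effect of -0.26 (SE 0.0932, limma adjusted p = 0.266). Pfkfb3 was dim. It read 74.5 to 169.5 on the 8 arrays of the Src experiment and 20.4 to 132.1 on the other 9, and its lowest array in each table was the one with SU6656 and PDGF. A value of 20.4 is below the offset of 21.2 signal units that was added before taking logs, so the log2 change of -1.77 between PDGF with SU6656 and PDGF alone in the repeat rests on a signal near the bottom of the scale.

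PI3K dependence was measured with LY294002 on 2 arrays of the Src experiment. With PDGF present, the Slc2a1 reading with LY294002 differed by a log2 value of -1.09 at the brightest probe set and of -1.16 and -0.83 at the others, 1 array against 1. At least 2-fold lower readings in that comparison were found for 1.79% of all probe sets. At the brightest probe set the PDGF response was 0.89 within the LY294002 pair and 1.57 within the vehicle pair. LY294002 alone against vehicle gave -0.42 there. The other Slc2a1 probe sets read 617 and 662.9 with vehicle, and 483.5 and 699.9 with LY294002 alone, so they differed in direction. The fitted LY294002 effect, 2 arrays against 2, was -0.75 for Slc2a1 (SE 0.269, limma adjusted p = 0.266) and -0.28 for Hk2 (SE 0.129, limma adjusted p = 0.401). At the other Slc2a1 probe sets it was -0.74 (SE 0.188, limma adjusted p = 0.126) and -0.38 (SE 0.221, limma adjusted p = 0.526). No member passed, and 0.511% of all probe sets did. The interaction of PDGF with LY294002, which sets the response with LY294002 against the mean of the other 3 pairs, was -0.30 for Slc2a1 (SE 0.458, limma adjusted p = 0.999) and -0.73 without either UO126 array, and -0.01 for Hk2 (SE 0.226). The interaction at the other Slc2a1 probe sets was -0.45 (SE 0.288) and -0.33 (SE 0.37). No probe set passed in that fit (0%). Of 15838 tested, 721 had an unadjusted p under 0.05, a share below the 0.05 that this cut gives where nothing differs. A smaller Slc2a1 response with LY294002 was therefore not shown by this test. For Hk2 the PDGF response was 0.49 with LY294002 and 0.68 with vehicle.

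MEK dependence was measured in both tables. In the Src experiment the PDGF response of Slc2a1 was 0.34 with UO126 at the brightest probe set and 0.79 and 1.20 at the others, against 1.57, 1.92 and 1.94 with vehicle. With PDGF present, UO126 changed it by a log2 difference of -1.14, -0.85 and -1.08 at these probe sets, where 1.81% of all probe sets were at least 2-fold lower. The interaction of PDGF with UO126 was -1.04 (SE 0.292, limma adjusted p = 0.5; unadjusted p = 0.00679) at the brightest probe set and -0.63 (SE 0.309) and -0.32 (SE 0.299) at the others. No member passed this test, in which 0.0189% of all probe sets did. The fitted UO126 effect was -0.53 (SE 0.269, limma adjusted p = 0.611), with no member among the 0.0442% of probe sets that passed.

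In the MEK experiment the Slc2a1 response to PDGF was 0.74 without inhibitor, -0.40 with UO126 and 0.33 with PD98059. Under PDGF the log2 difference from PDGF alone was -0.75 with UO126 at 10 µM and -0.11 with PD98059 at 7.5 µM, and without PDGF it was 0.40 and 0.30. The doses of these MEK inhibitors differ, so they were not compared with each other. MEK inhibition, taken as 2 arrays, was then fitted over all 9 arrays of the table. That fit had 1 PDGF term for the MEK experiment and the repeat, so its values are not ratios within the MEK experiment. The change was -0.46 with PDGF (SE 0.234, limma adjusted p = 0.733) and 0.38 without PDGF (SE 0.234, limma adjusted p = 0.789). The interaction was -0.84 (SE 0.296, limma adjusted p = 0.927, limma unadjusted p = 0.0175). No member passed in any of these 3 fits, where the shares of all probe sets passing were 0%, 0.0115% and 0%. In the first and the last, 629 and 423 of 8695 probe sets had an unadjusted p under 0.05. The share was above 0.05 in the first and below it in the last, and this cut gives 0.05 where nothing differs. The Slc2a1 reading with UO126 and PDGF was below that with PDGF alone in both experiments that made the comparison, and these differences of single arrays were not themselves tested.

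**Figure D3:**
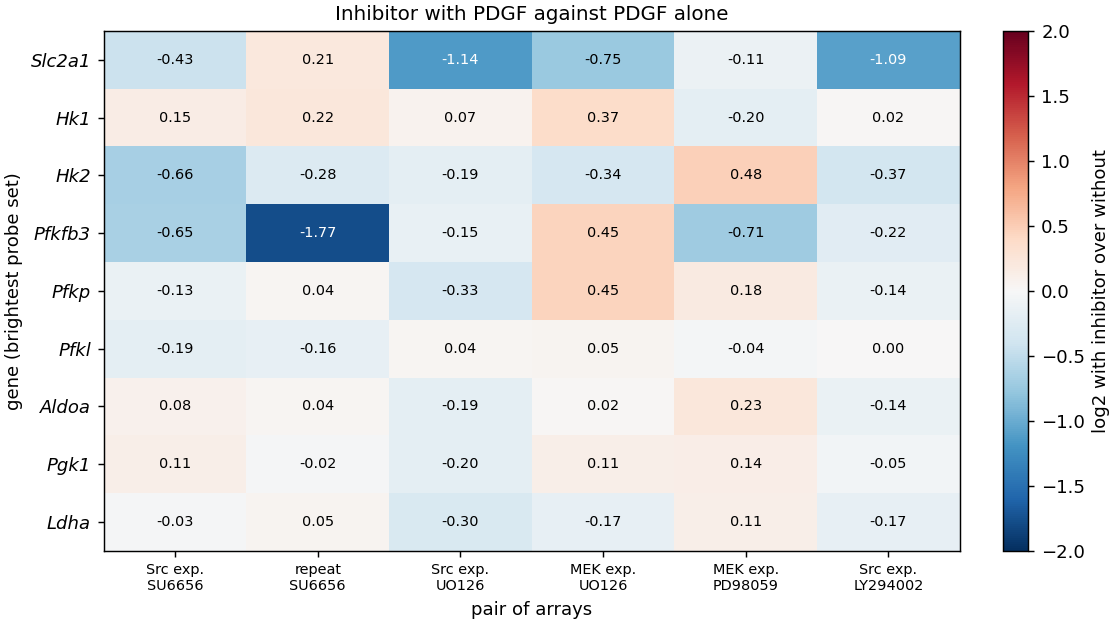
Log2 difference of each array with PDGF and an inhibitor from the array with PDGF alone, for the brightest probe set of each gene, 1 array against 1 within an experiment; blue is lower and red higher with the inhibitor. Slc2a1 reads -1.14 and -0.75 with UO126, -1.09 with LY294002 and -0.43 and 0.21 with SU6656.

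For Hk2 the PDGF response was 0.45 with UO126 in the Src experiment, against 0.68 without inhibitor. In the MEK experiment it was 0.23 with UO126 and 0.48 with PD98059, against 0.55 without inhibitor. These values, each 1 array against 1, were lower with each MEK inhibitor, but only slightly with PD98059. A lower value was not particular to MEK inhibitors for Hk2. Its signal rose from 703.8 to 1137.3 with vehicle, and less with SU6656 (545.6 to 704.2) and with LY294002 (621.6 to 871). The difference between Hk2 and Slc2a1 was not tested. The interactions were -0.06 with UO126 (SE 0.213, limma adjusted p = 0.962) and, in the fit that includes the repeat, -0.27 with MEK inhibition (SE 0.372, limma adjusted p = 0.999). Of the 3 inhibitors in the 8-array table, SU6656 had the largest fitted effect on Hk2, -0.50 (SE 0.129, limma adjusted p = 0.396), lower on both SU6656 arrays than on the matched arrays without it. The reading with SU6656 and PDGF was also below PDGF alone in the repeat, by a log2 difference of -0.28 after -0.66 in the Src experiment. For Slc2a1 the SU6656 effect was -0.48 (SE 0.269, limma adjusted p = 0.701), and the change under PDGF was -0.43 in the Src experiment and 0.21 in the repeat. No member passed for SU6656, where 0.107% of all probe sets did.

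Pgk1, Ldha and Aldoa shared a lower reading at their brightest probe sets on the array with UO126 and PDGF. The interaction of PDGF with UO126 was -0.41 for Pgk1 (SE 0.0904, limma adjusted p = 0.437), -0.45 for Ldha (SE 0.126, limma adjusted p = 0.5) and -0.31 for Aldoa (SE 0.109, limma adjusted p = 0.591), none past the threshold. The other Pgk1 probe sets gave -0.35 (SE 0.114) and -0.12 (SE 0.335). Those of Aldoa gave -0.08 (SE 0.111), -0.21 (SE 0.119) and -0.34 (SE 0.152), so the size differed between probe sets. Within the UO126 pair of the Src experiment PDGF gave -0.43, -0.44 and -0.36 for these genes. In the other 3 pairs of that experiment it gave -0.14 to 0.09. In the MEK experiment the same comparison gave -0.39, -0.12 and -0.15, and PDGF without inhibitor -0.43, -0.30 and 0.03, so there the UO126 pair did not stand below the uninhibited pair for Pgk1 and Ldha.

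**Figure D4:**
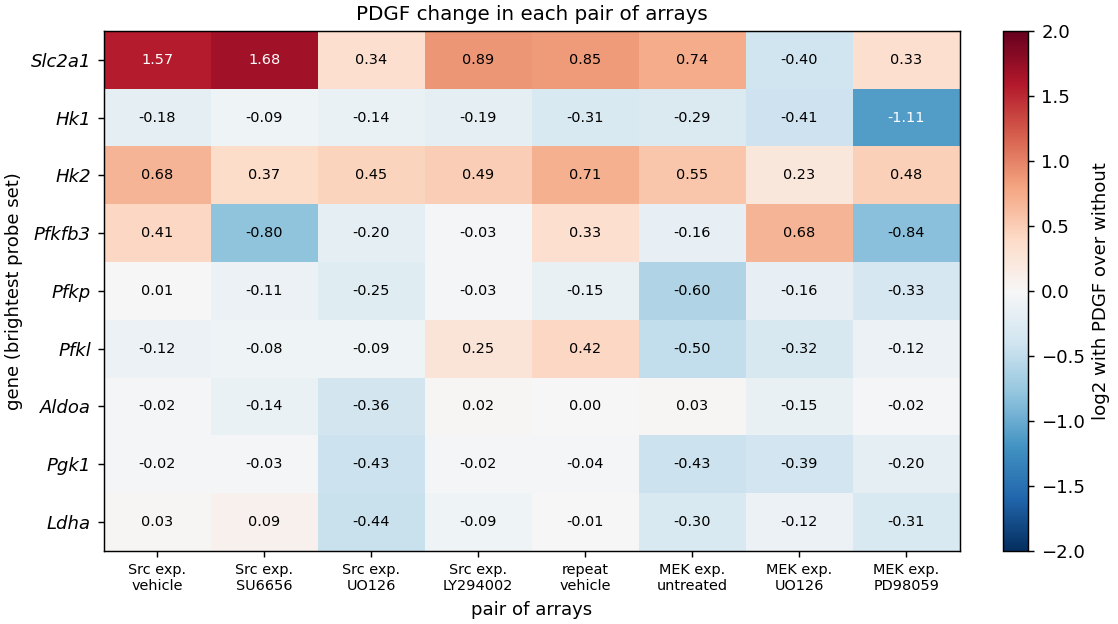
Log2 difference with PDGF over without in each of the 8 pairs of arrays, for the brightest probe set of each gene; red is higher and blue lower with PDGF. Hk2 is above 0 in every pair (0.23 to 0.71), Slc2a1 ranges from 1.68 with SU6656 to -0.40 with UO126 in the MEK experiment, and Hk1 is below 0 in every pair.

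Other genes of glucose metabolism gave no call with PDGF. Of the other glycolysis genes (further isozymes, glucose transporters and lactate carriers), 0 of 13 tested passed in the 8-array table and 0 of 11 in the 9-array table, with medians of -0.05 and -0.15. The lactate carrier Slc16a1 had 0.32 and 0.30, and the neuronal type glucose transporter Slc2a3 -0.35 and -0.06. For genes that take pyruvate into mitochondria the counts were 0 of 9 and 0 of 8, with medians of -0.03 in both, and for the pentose phosphate pathway 0 of 6 in both, with -0.07 and -0.12. Over all genes the limma calls were 2.51% up and 0.824% down in the 8-array table and 1.67% and 0.267% in the 9-array table.

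Among regulators of the pathway a few named genes passed. Txnip, whose product promotes removal of GLUT1 from the cell surface, fell with PDGF by 2.51 on the log2 scale in the 8-array table (SE 0.201, limma adjusted p = 9.8e-05) with -2.31 (SE 0.104) at its other probe set. In the 9-array table it fell by 1.32 (SE 0.235, limma adjusted p = 0.0175), but its other probe set gave 0.20 (SE 0.174), and leaving out either array of the MEK experiment's uninhibited pair lost the call (-1.34 and -1.35). With LY294002 the Txnip effect was 1.30 (SE 0.284, limma adjusted p = 0.0884) at the brighter probe set and 0.83 (SE 0.147, limma adjusted p = 0.05, just under the threshold before rounding) at the other. For PDGF, Txnip was 1 of 4 genes of the glucose uptake list tested in the 8-array table and 1 of 2 in the 9-array table, and the others did not pass. Over all genes 0.824% and 0.267% fell.

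Among the HIF and MYC genes tested, there were 3 rises and 1 fall among 14 in the 8-array table, and 3 rises and 1 fall among 13 in the other. Myc rose by 1.60 (SE 0.139) and 1.59 (SE 0.263) on the log2 scale, the second call being lost without either UO126 array with and without PDGF or without an array of the repeat's PDGF pair (1.57 to 1.61). Adm, the adrenomedullin gene and a HIF target, rose by 1.76 (SE 0.148) and 1.89 (SE 0.168). Hif1a, the oxygen-regulated HIF subunit, rose in the 8-array table by 0.66 (SE 0.124, limma adjusted p = 0.019), a call lost without any 1 array of the vehicle, SU6656 and UO126 pairs (0.52 to 0.70), with 0.53 and 0.41 at its other probe sets and 0.20 in the 9-array table. Vegfa, the angiogenic factor and a HIF target, rose in the 9-array table by 1.42 (SE 0.16). In the 8-array table it had 0.35 (SE 0.106, limma adjusted p = 0.129), and 0.71 (SE 0.218, limma adjusted p = 0.133) at its other probe set. Ddit4, also a HIF target and an inhibitor of mTORC1 signalling, fell by 1.24 (SE 0.116) and by 0.95 (SE 0.161). The second call was lost without either UO126 array (-0.98). Ddit4 also fell with LY294002, by 1.12 (SE 0.164, limma adjusted p = 0.0217), a call lost without the vehicle, the PDGF or the LY294002 with PDGF array (-1.30 to -0.82). The early response genes Egr1, Fos and Dusp6, read as a check that PDGF had acted, rose in both tables by 2.60 to 4.03. Their interactions of PDGF with UO126 in the 8-array table were 1.59, 1.19 and 0.36, where a value above 0 is a larger response. The fitted UO126 effects there were -0.35, 0.18 and -1.07. The interactions with MEK inhibition in the 9-array table were 0.05, 0.94 and -1.39. None of these passed the threshold, and how fully the inhibitors blocked MEK was not tested.

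Over the 8 arrays of the Src experiment, the genes whose log2 profile was most like that of Slc2a1 were Clic4, an intracellular chloride channel protein, with Pearson's r = 0.973, Lima1, an actin-binding protein, with 0.958, and Ist1, an ESCRT component, with 0.957. For Hk2 they were Mfsd6 with 0.982, Pmvk, an enzyme of the mevalonate pathway, with 0.981, and Stard4, a cholesterol transfer protein, with 0.966. For Pfkfb3 they were Napa with 0.964, and Oxsm and Smarcb1 with 0.927 each. These are the highest of 9217 genes over 8 arrays that share 1 experiment and its PDGF contrast, and the gene ranked 100th still had r = 0.822, 0.826 and 0.781.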

How the data were processed

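Each deposited value is an intensity on a linear scale, 1 per probe set and array, per the file headers and values. Neither the software behind it nor a genome build is named in the labels or files at hand. The mean after trimming 2% at each end lies between 500.2 and 500.4 on every array, so the deposited intensity had been scaled. Probe sets were named by GEO's platform annotation. For 20364 and 10839 probe sets the symbol was taken by Entrez ID from the RefSeq table (GRCm38.p6), whether or not it changed. The 691 and 396 probe sets with several genes were not named.

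Control probe sets were removed and each table was quantile normalised separately. Before log2, an offset at the 20th percentile of the table was added (36.3 signal units for 8 arrays, 21.2 for 9), which understates changes of dim probe sets. After the filter on low signals, 15838 and 8695 probe sets remained. A gene is given by its brightest probe set unless others are named.

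Tests used limma 3.58.1 under R 4.3.3, with eBayes and a trend. The 8-array fit had PDGF and each inhibitor as terms, so that both arrays of a pair share an inhibitor. In the 9-array table PDGF was fitted over 4 pairs as blocks, and MEK inhibition with terms for PDGF, experiment, SU6656 and the interaction. The interactions with LY294002 and UO126 were fitted 1 at a time. The fits left 3 residual degrees of freedom, and the 8-array interaction fits 2. This residual includes treatment differences without a term and is not a replicate spread. The script was tested on simulated data. The number of arrays limits precision.

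Genes named are the members, members of the fixed lists past the threshold, the 3 nearest profiles of Slc2a1, Hk2 and Pfkfb3, and 3 response genes. Slc16a1, Slc2a3 and the markers were named after their values were seen. Members and lists were chosen with earlier results of these data known.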

Additional observations from a re-analysis of the deposited data

How the results depend on the processing

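The count of 2 members that rose with PDGF in the 8-array table was 1 without the pair block (Slc2a1), 0 without the variance trend, and 0 to 2 when 1 array was left out. The count of 0 in the 9-array table was 2 on the deposited values (Hk1 and Hk2), 1 with scaling to a common median and 1 without probe sets that can match several transcripts (Hk2), and 0 when 1 array was left out. The cause of these changes was not tested. Without the pair block the PDGF calls for Hif1a, for Ddit4 in both tables and for Myc and Txnip in the 9-array table were also lost, and without the variance trend the same calls except that for Ddit4 in the 8-array table. No member passed for an inhibitor or an interaction under any alternative run. Txnip in the 9-array table was 0.20 without probe sets that can match several transcripts, which leaves its other probe set, and -0.56 as the mean of its probe sets. Over all probe sets, the PDGF count of 525 ranged from 175 to 644 (264 to 386 without 1 array), that of 150 from 60 to 162, that of 81 for LY294002 from 0 to 106, that of 17 for SU6656 from 0 to 19, that of 7 for UO126 from 0 to 8 and that of 3 for PDGF with UO126 from 0 to 9. The log2 effect of PDGF on Slc2a1 in the 8-array table ranged from 0.93 to 1.38 (limma adjusted p 0.0012 to 0.137) and that on Hk2 from 0.44 to 0.59 (0.00496 to 0.155). With 1 array per condition, single conditions have no replicate check.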
